A study of Rattus norvegicus with 64 samples.

Results

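The genes of MHC class II presentation were followed in reconstructed rat bladder wall. They were the classical class II chains RT1-Da, RT1-Db1, RT1-Ba and RT1-Bb, the peptide exchange chains RT1-DMa and RT1-DMb, the invariant chain Cd74, the transactivator Ciita, and the costimulatory ligands Cd86 and Cd80. They were chosen by name, as the array probes whose RefSeq transcript belongs to these genes. All 10 genes had a named probe, which gave 12 of 18758 named probes and 10 of 15715 named genes, on arrays with 30367 gene probes. RT1-Db1 and RT1-Bb had a pair of probes each. For RT1-Db1 the first is A_64_P130578 and the second A_64_P134927, and for RT1-Bb the first is A_44_P552452 and the second A_64_P043911.

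The arrays held total RNA of the augmented bladder wall of 64 male Wistar rats, 1 rat per array and 8 rats in each of 8 groups. All rats underwent hemicystectomy, and the bladder was reconstructed using bladder acellular matrix (BAM), either alone or carrying stem cells from fat (ASCs), and harvested after 7, 30, 90 or 180 days. BAM is bladder wall from which the cells were removed. The ASCs, described by the study as autologous, came from retroperitoneal fat of male Wistar rats and were cultured to the third passage. The sample labels call the rats syngeneic, and none of the labels gives an MHC haplotype. The wall holds all its cell types together, so that fewer cells of a type and less RNA per cell cannot be told apart.

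MHC class II molecules are dimers of an alpha and a beta chain that carry peptides of ingested proteins to the cell surface, where CD4+ T cells read them. Dendritic cells, macrophages and B cells make them constantly, and other cells can be induced to do so by interferon gamma. RT1-D and RT1-B are the rat's classical class II molecules, and the genes of such molecules are among the most variable between individuals. Their transcription depends on CIITA, a coactivator that docks on factors bound to an X box and a Y box shortly before the start of each class II gene.

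That element is shown for the members whose promoter window held it. The windows come from RefSeq on GRCr8 and run from 250 bases before to 50 bases after the start. Of the members, 8 had a window, and RT1-DMb and Ciita had none. The letters searched, after these windows had been read, were TGATTGG, the core of the Y box, and GNNACNG, part of the X box, ending 5 to 40 bases before it, on both strands. The stretches below run 5′ to 3′ on the strand of the gene, with the GNNACNG and TGATTGG matches in capitals.
RT1-Da, chr20:4515329-4515373, plus strand: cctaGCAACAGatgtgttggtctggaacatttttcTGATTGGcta
RT1-Db1, chr20:4560235-4560278, minus strand: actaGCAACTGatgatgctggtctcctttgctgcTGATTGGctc
RT1-Ba, chr20:4576977-4577021, plus strand: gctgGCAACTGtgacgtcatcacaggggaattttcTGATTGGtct
RT1-Bb, chr20:4604172-4604215, minus strand: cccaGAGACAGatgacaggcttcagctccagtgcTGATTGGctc
RT1-DMa, chr20:4712392-4712436, minus strand: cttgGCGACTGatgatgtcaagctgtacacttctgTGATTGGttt
The pair was thus found in 5 of the 8 members with a window, with 23 or 24 bases between the matches. Over all 33469 windows of the table, 7.06% held TGATTGG and 1.17% held the pair. Since the letters were searched after the members' windows had been read, these shares are a description and no test. The windows of Cd74, Cd86 and Cd80 held no TGATTGG. A match in letters is not a measured binding site.

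Levels are given as log2 of the processed signal after the 75th percentile of each array was subtracted on the log2 scale, so that 0 is the level of a gene spot brighter than most. The levels of different probes were not compared with each other. A probe was called in a comparison when limma, fitted over all 64 arrays, gave a Benjamini-Hochberg adjusted p below 0.01 over the 30367 probes and a fold change above 1.5. The share of gene spots well above background was 73.3% to 95.6% on the arrays of the early days (7 and 30) and 35.5% to 64.6% on those of the late days (90 and 180). The arrays that stood apart from their groups were BAM seeded with ASCs at 30 days, replicate 1, at 95.6%, BAM only at 7 days, replicate 7, at 86.1%, and BAM only at 90 days, replicate 8, at 35.5%. Every group had a slide to itself, and the early and the late days had different scan dates, so slide, date and group cannot be told apart. Over all probes the median log2 difference between grafts was -0.16, 0.11, -0.27 and 0.06 from 7 to 180 days.

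**Figure D1:**
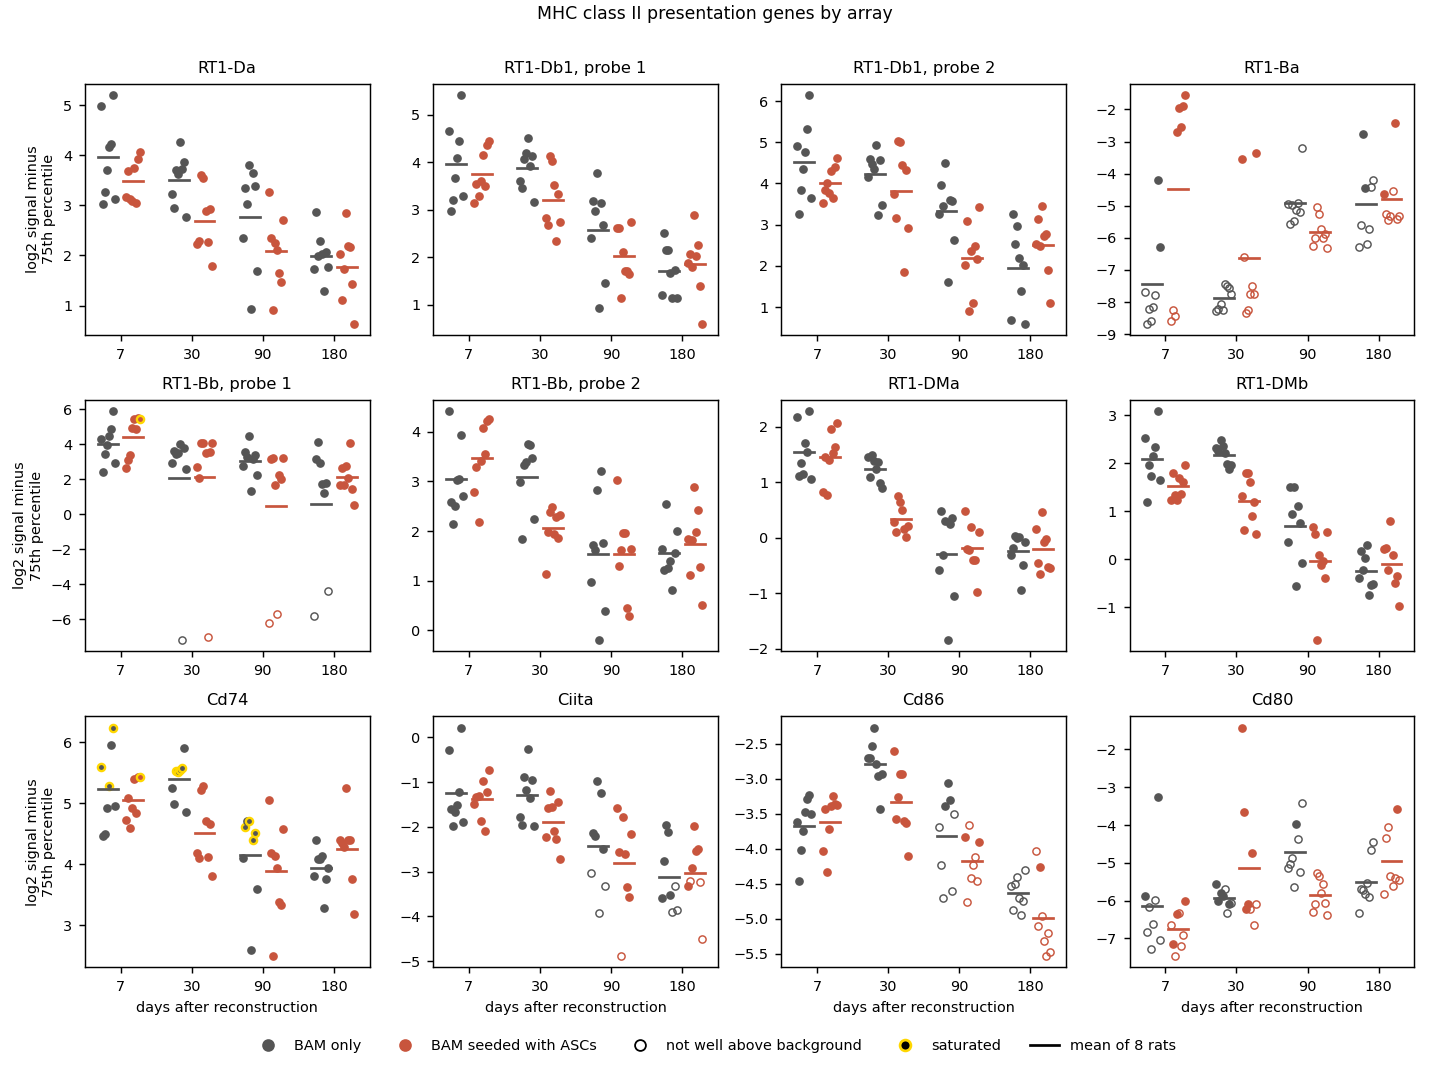
Level of each probe on each of the 64 arrays, in log2 units above the 75th percentile of its array, against days after reconstruction, with a scale of its own in each panel, filled points well above background, open points not, yellow edges for saturation and bars for means of 8 rats. Most class II probes were lower at 90 and 180 days than at 7 and 30 days, and 6 arrays of the first RT1-Bb probe lay far below the rest.

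RT1-Da, the alpha chain of RT1-D, was well above background on all 64 arrays. With BAM only its level had a lowest, median and highest value of 3.03, 3.94 and 5.20 at 7 days, then 2.77, 3.66 and 4.26 at day 30, then 0.94, 3.18 and 3.80 at day 90, and finally 1.29, 2.01 and 2.86 at day 180. With ASCs the same values were 3.05, 3.43 and 4.06 at 7 days, then 1.78, 2.59 and 3.61 at day 30, then 0.91, 2.18 and 3.26 at day 90, and finally 0.64, 1.87 and 2.85 at day 180. In each graft the median was lower at 180 days than at 7 days, while the ranges of neighbouring days overlapped. These 2 days were not tested against each other, and their arrays had different scan dates.

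RT1-Db1, the partner beta chain, was above background on all 64 arrays with both probes. The first probe had medians of 3.87, 4.00, 2.82 and 1.70 from 7 to 180 days with BAM only, and of 3.58, 3.07, 1.91 and 1.95 with ASCs. The second probe had medians of 4.57, 4.41, 3.51 and 2.10 with BAM only, and of 3.92, 4.03, 2.27 and 2.63 with ASCs. Both probes thus had their lower medians at 90 and 180 days.

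RT1-DMa and RT1-DMb, the chains of the molecule that swaps the invariant chain remnant for a peptide, were also above background on all 64 arrays. RT1-DMa had medians of 1.45, 1.31, -0.04 and -0.13 with BAM only, and of 1.5, 0.25, -0.22 and -0.27 with ASCs. RT1-DMb had medians of 2.06, 2.24, 0.84 and -0.31 with BAM only, and of 1.49, 1.26, 0.03 and -0.06 with ASCs. The medians of the 2 grafts were furthest apart at 30 days for RT1-DMa, where BAM seeded with ASCs was already near its level of later days.

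Cd74, the invariant chain that fills the peptide groove during assembly, had medians of 5.12, 5.53, 4.46 and 4.01 with BAM only, and of 5.00, 4.42, 4.03 and 4.37 with ASCs. Its probe was saturated on 3 of 8 BAM arrays and 1 of 8 ASC arrays at 7 days, and on 4 of 8 BAM arrays at 30 and at 90 days, where no ASC array was saturated. A saturated value is a lower limit, so that the BAM levels of those days are understated by an unknown amount.

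Ciita had medians of -1.55, -1.27, -2.34 and -3.42 with BAM only, and of -1.33, -1.82, -2.59 and -3.06 with ASCs. It was above background on all arrays at 7 and 30 days, but at 180 days on only 5 of 8 arrays of either graft. Cd86 and Cd80, the ligands of CD28 and CTLA-4 on T cells, were dim. Cd86 was above background on all arrays at 7 and 30 days, on 3 of 8 BAM and 2 of 8 ASC arrays at day 90, and on 0 of 8 and 1 of 8 at day 180. Cd80 was above background on 17 of 64 arrays in all.

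The RT1-B chains behaved differently from RT1-D on single arrays. RT1-Ba, the alpha chain, was above background on 13 of 64 arrays, of which 5 were BAM seeded with ASCs at 7 days. On those 5 its level was -2.70, -1.95, -2.55, -1.89 and -1.56, while the other 3 arrays of that group were not above background and went down to -8.59. No array lay between these values in that group.

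The first RT1-Bb probe was not above background on 6 of 64 arrays, where it read from -7.18 to -4.40, and 0.51 or more on the other 58. These arrays were BAM only at 30 days, replicate 6, BAM only at 180 days, replicates 1 and 8, BAM seeded with ASCs at 30 days, replicate 6, and BAM seeded with ASCs at 90 days, replicates 1 and 5. The second RT1-Bb probe was above background on all 6, at 3.74 on the array where the first read -7.18 and at 1.64 to 3.02 on the others. The 2 probes of this gene therefore disagreed on these 6 arrays, which came from both grafts and from 30, 90 and 180 days. RT1-Ba was not above background on any of them, and all 13 arrays with RT1-Ba above background also had the first RT1-Bb probe above background.

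**Figure D2:**
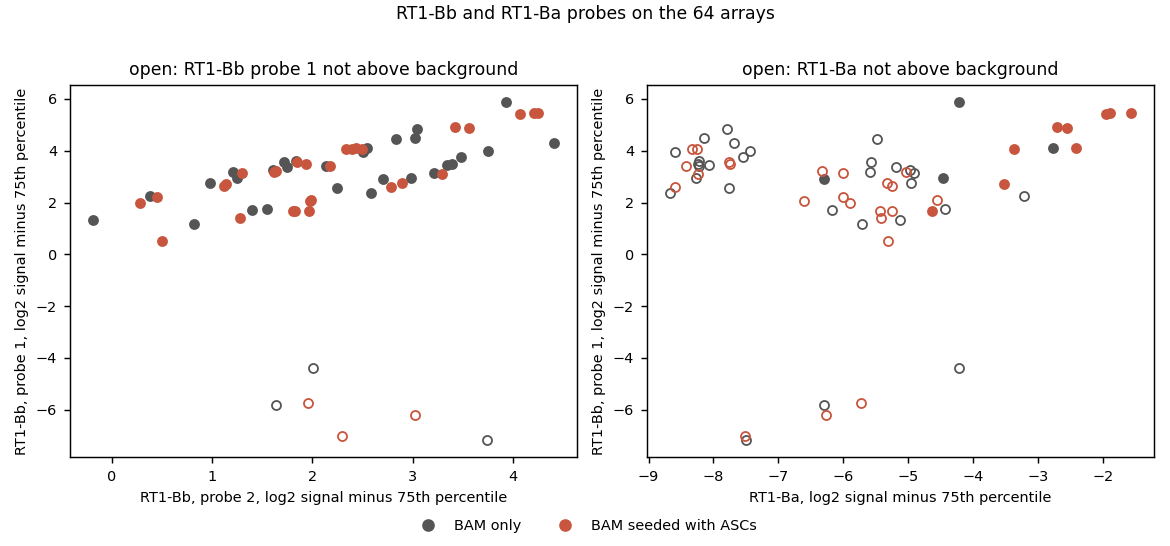
Levels on the 64 arrays, in log2 units above the 75th percentile of each array, with the first RT1-Bb probe against the second on the left and open points for the 6 arrays on which the first was not above background. On the right the first RT1-Bb probe is plotted against RT1-Ba, with filled points for the 13 arrays on which RT1-Ba was above background, all of them with the first RT1-Bb probe at 1.68 or more.

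Deviations of each array from the mean of its group were used to see which members varied together between rats of the same graft and day. These correlations describe 64 arrays that share 8 slides, and no p is given. RT1-Da and the first RT1-Db1 probe had a Pearson r of 0.93. RT1-Da and Cd74 had 0.92, RT1-Da and Ciita 0.86, and Cd74 and RT1-DMb 0.87. RT1-D, RT1-DM, the invariant chain and the transactivator were thus high on the same rats. Cd86 stayed between 0.03 and 0.29 with every other member, and Cd80 between -0.12 and 0.42. The RT1-Bb probes had r = -0.05 with each other over 64 arrays and 0.67 over the 58 arrays on which the first was above background. Of the RT1-D probes, the second of RT1-Db1 was the one closer to the first RT1-Bb probe, at 0.66 against 0.38 for the first of RT1-Db1 and 0.16 for RT1-Da.

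**Figure D3:**
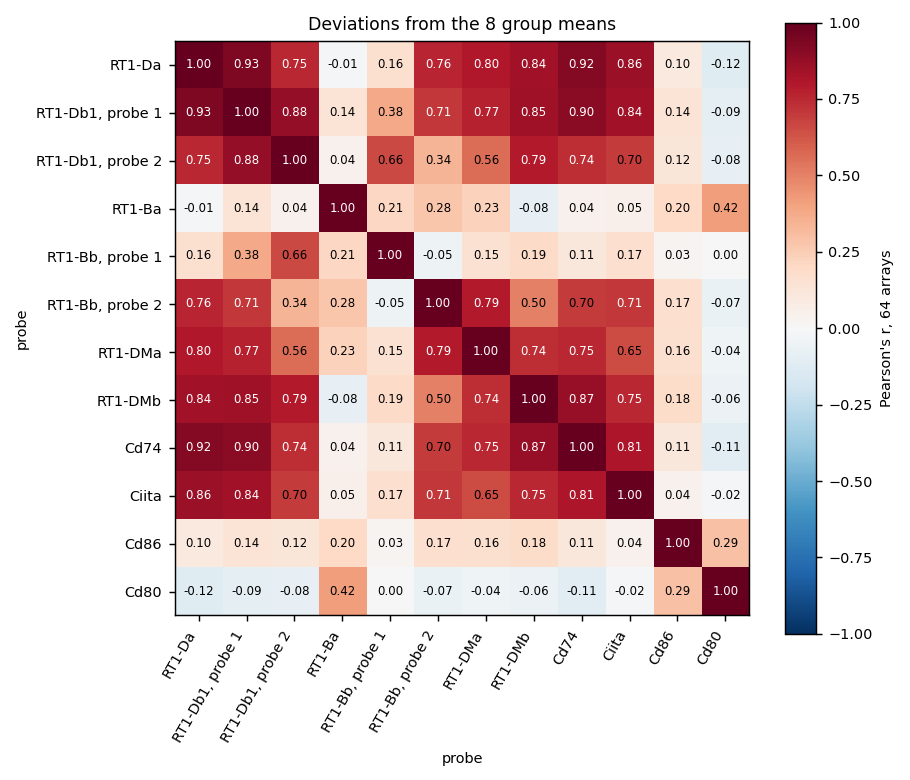
Pearson r between the deviations of the probes from the 8 group means, over 64 arrays, as a colour scale from -1 to 1. RT1-Da had 0.75 or more with both RT1-Db1 probes, RT1-DMa, RT1-DMb, Cd74, Ciita and the second RT1-Bb probe, while the second RT1-Bb probe had only 0.34 with the second RT1-Db1 probe, and RT1-Ba, Cd86 and Cd80 had low values.

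The spread between rats of a group was wide for these genes. The SD within groups was 0.691 for RT1-Da, 0.664 and 0.843 for the RT1-Db1 probes, 0.568 for Cd74, 0.532 for RT1-DMb and 0.463 for RT1-DMa. The median over 13981 well detected probes was 0.262, and these members lay between its 85.2 and 97.3 percentiles. The first RT1-Bb probe had an SD of 2.79.

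The first question is whether seeding with ASCs changed these genes at a given day. At 7 days, 1 of the 12 probes was called, RT1-Ba, which was higher with ASCs. Of all probes, 2.11% were called higher and 5.62% lower. RT1-Ba had a mean of -4.49 ± 3.28 (SD, n = 8) with ASCs and -7.45 ± 1.51 with BAM only, above background on 5 and 2 arrays. The groups overlapped, and the log2 difference was 2.96 with a standard error of 0.787 (limma adjusted p = 0.00493). The two-sided exact permutation test of the 16 arrays gave p = 0.0429, or 0.172 after adjustment over the 48 tests of member probes and days. The call was lost with normexp background correction, where the difference was 0.94 (adjusted p = 0.0391), and when only these groups were fitted (adjusted p = 0.0954). It was also lost without any 1 of the 5 ASC arrays on which the probe was above background, or without BAM replicate 2, 3, 4 or 6, with adjusted p up to 0.0207, and it was kept without BAM replicate 7 (3.42, adjusted p = 0.00163).

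The RT1-B beta chain did not pass the test at 7 days, with a difference of 0.39 (standard error 1.37) for the first RT1-Bb probe and 0.43 (0.379) for the second. The RT1-D chains, RT1-DMb and Cd74 differed by -0.55 to -0.19, with limma adjusted p between 0.147 and 0.717. The median difference of the 12 probes was -0.16, equal to the median of all probes, with 4 above 0 and 8 below.

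At 30 days the members of the peptide exchange molecule were lower with ASCs. RT1-DMa had values of 0.01, 0.25 and 0.75 (lowest, median and highest) with ASCs and of 0.90, 1.31 and 1.49 with BAM only. All 8 ASC arrays lay below all 8 BAM arrays. The log2 difference was -0.91 with a standard error of 0.23, a 1.88-fold lower level, and the probe was called (limma adjusted p = 0.00972). RT1-DMb had values of 0.53, 1.26 and 1.80 with ASCs and of 1.89, 2.24 and 2.48 with BAM only. Its groups did not overlap either, and its difference was -0.96 (standard error 0.263), but it was not called (limma adjusted p = 0.0169).

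RT1-DMa was thus the only probe of 12 called at 30 days, beside 0.474% of all probes called lower and 1.2% called higher. RT1-DMa and RT1-DMb were the 2 of 12 whose groups did not overlap, which held for 0.873% of all probes in the same direction. For each of them the two-sided exact permutation test gave p = 0.000155, the smallest that 8 against 8 arrays allow, and 0.00372 after adjustment over 48 tests. The RT1-DMa call stood close to its threshold. Its limma adjusted p was 0.0134 with the replicate number as a block, and 0.0101 to 0.0147 under quantile normalization, the percentile of detected probes, the series matrix values and the analysis of variance without moderation. It was kept without ASC replicate 3, 4 or 5 or BAM replicate 7, and lost without any other single array, with adjusted p up to 0.0239 and differences between -0.97 and -0.86.

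Cd74 at 30 days had values of 3.80, 4.42 and 5.29 with ASCs and of 4.86, 5.53 and 5.90 with BAM only, and 6 of 8 ASC arrays lay below every BAM array. The difference was -0.89 with a standard error of 0.281 (limma adjusted p = 0.0384). Without the saturated values it was -0.74 (adjusted p = 0.173). Since 4 BAM arrays and no ASC array were saturated, the first value understates the size of the difference, and leaving out saturated values removes the highest BAM arrays. Cd74 was not called.

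None of the classical chains passed the test at 30 days, and they did not all lie on the same side. The difference was -0.82 for RT1-Da (standard error 0.341), -0.69 and -0.41 for the RT1-Db1 probes, and -1.04 for the second RT1-Bb probe (0.379), with limma adjusted p of 0.116, 0.173, 0.558 and 0.0721. RT1-Ba differed by 1.25 (adjusted p = 0.316), with no BAM array and 2 ASC arrays above background, and the first RT1-Bb probe by 0.05. Of these 2 ASC arrays, 1 was replicate 1 (-3.53), the array with the most spots above background. Without 1 array the RT1-Ba difference ran from 0.78 to 1.49. Ciita differed by -0.59 (adjusted p = 0.327) and Cd86 by -0.54 (adjusted p = 0.107). In all, 9 of 12 probes were below 0, against 37% of all probes. The median of the 12 was -0.64, or -0.75 once the median of all probes was subtracted, and 7 of 12 had an unadjusted limma p below 0.05, against 25.8% of all probes in either direction. Cd80 was higher by 0.80 (adjusted p = 0.266), with its highest value of -1.42 on ASC replicate 1, the array with the most spots above background. The difference was 0.26 without that array.

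At 90 days none of the 12 probes was called by limma, while 3.88% of all probes were called higher and 8.6% lower. At an unadjusted p below 0.05 there were 4, against 47.9% of all probes. The analysis of variance without moderation also called 0. The second RT1-Db1 probe had values of 0.90, 2.27 and 3.44 with ASCs and of 1.61, 3.51 and 4.50 with BAM only, a difference of -1.13 (standard error 0.415, limma adjusted p = 0.0315). RT1-DMb differed by -0.74 (0.263, adjusted p = 0.0265). Both passed without BAM replicate 5, at -1.37 (adjusted p = 0.00988) and -0.92 (adjusted p = 0.00598).

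Cd80 differed by -1.14 at 90 days (adjusted p = 0.0476), with 1 BAM and 0 ASC arrays above background, so that both means lay mostly in the background and no fold is given. RT1-DMa differed by 0.12 and the second RT1-Bb probe by 0.00, so that the pattern of 30 days was not repeated probe by probe. The median of the members was -0.61, and -0.34 relative to all probes, with 11 of 12 below 0 against 67% of all probes. On the same scale the housekeeping genes Actb, Ppia and Rplp0 were called higher with ASCs at 90 days, by 1.04, 1.02 and 1.15, and the median local background was 321 to 366 on the BAM arrays and 99 to 120 on the ASC arrays. Their part in the member differences was not tested.

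At 180 days limma again called 0 of 12 probes, beside 2.4% of all probes called higher and 0.0428% lower, and so did the analysis of variance. No probe had an unadjusted p below 0.05, against 14.1% of all probes. The differences lay between -0.35 for Cd86 and 1.52 for the first RT1-Bb probe, with a median of 0.16. For RT1-Da the 95% interval of the difference ran from -0.92 to 0.45, and for Cd74 from -0.25 to 0.88, and differences within these intervals are not excluded.

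**Figure D4:**
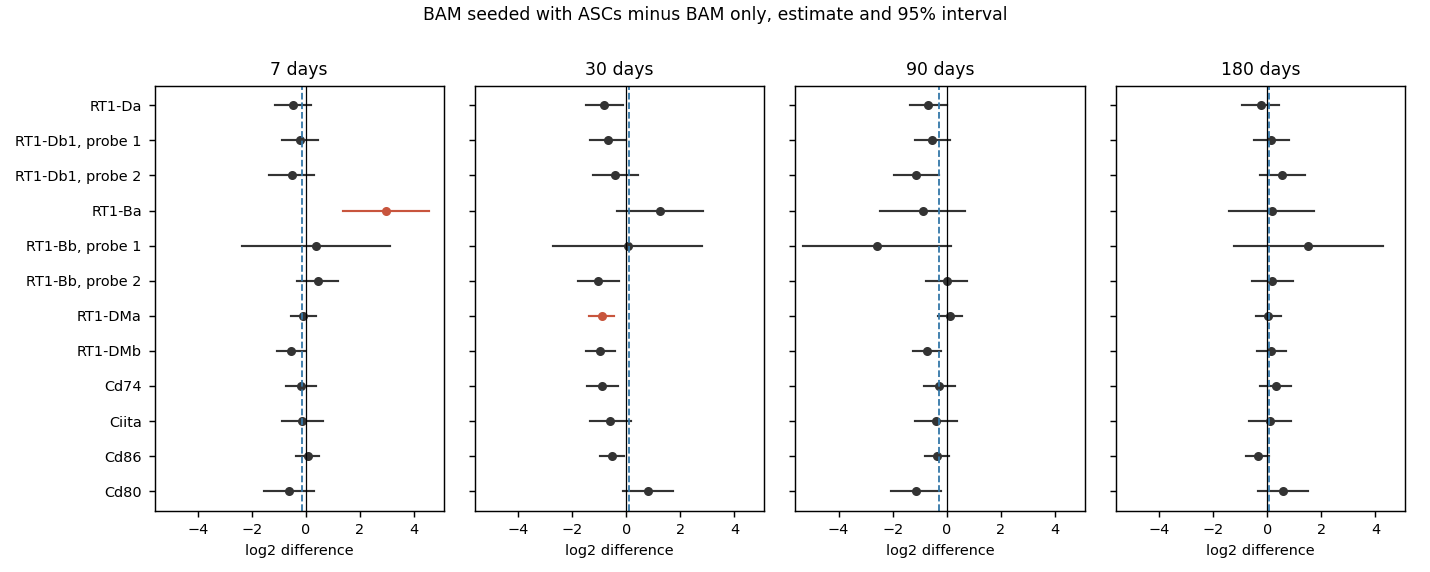
Log2 difference, BAM seeded with ASCs minus BAM only, for each probe at each day with its 95% interval from limma, in red for the called probes, RT1-Ba at 7 days and RT1-DMa at 30 days, and with a dashed line at the median difference of all probes. At 30 days most intervals lie to the left of that line, and at 180 days they spread around it.

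The change of the graft difference from one day to the next was tested in the same fit. None of the 12 probes was called for 30 minus 7, 90 minus 30 or 180 minus 90 days. Of all probes, 0.985%, 9.99% and 9.79% were called in these contrasts. At an unadjusted limma p below 0.05 there were 3, 2 and 4 of 12. The share of all probes at that looser threshold is not given, so these counts are not set against the called shares. RT1-DMa came closest, with a graft difference higher by 1.03 at 90 than at 30 days (standard error 0.325, adjusted p = 0.0154). The graft differences of these genes were therefore not shown to differ between days.

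The second question is how the genes changed over the follow-up within a graft. These contrasts share groups with those between grafts. From 7 to 30 days with BAM only, Cd86 was the only probe called, higher by 0.88 (standard error 0.219, limma adjusted p = 0.00208), beside 4.44% of all probes called higher and 4.21% lower. The Cd86 call was lost with normexp correction (0.42, adjusted p = 0.0335) and quantile normalization (0.92, adjusted p = 0.0613). The other 11 probes with BAM only differed by -1.95 to 0.20 and did not pass, the largest being the first RT1-Bb probe with its low array at 30 days.

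With ASCs, 3 probes were called between 7 and 30 days, with 1.40% of all probes called lower and 6.67% higher. RT1-DMa fell by 1.13 on the log2 scale (standard error 0.23, adjusted p = 0.000211), and the second RT1-Bb probe fell by 1.42 (0.379, adjusted p = 0.0045). RT1-DMa was called under every alternative and without any single array. The RT1-Bb call was lost without ASC replicate 5, 7 or 8 at 7 days or replicate 1 at 30 days, with adjusted p up to 0.0153. Cd80 was called higher by 1.62 (adjusted p = 0.00742), on 3 arrays above background at 7 days and 5 at 30 days. This call was lost without ASC replicate 1, 2 or 6 at 30 days or replicate 1, 2, 3, 6 or 7 at 7 days. The difference was 1.09 without replicate 1 at 30 days (adjusted p = 0.0469), 0.53 with normexp correction (adjusted p = 0.164) and 1.35 relative to the median of all probes (adjusted p = 0.0235).

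Between 30 and 90 days most of the probes called in either graft were lower. With BAM only, 7 of 12 probes were called lower, against 9.49% of all probes, and 1 was called higher, against 35.2%. The second RT1-Bb probe fell by 1.56, RT1-DMa by 1.54, RT1-DMb by 1.49, the first RT1-Db1 probe by 1.32, Cd74 by 1.24, Ciita by 1.12 and Cd86 by 1.02, with limma adjusted p from 6.24e-08 to 0.00868. Cd74 was saturated on 4 of 8 BAM arrays at 30 days and on 4 of 8 at 90 days. Its highest values there were 5.90 and 4.71, and the size of its fall is therefore uncertain. Cd86 was above background on 3 of 8 BAM arrays at 90 days, so its later mean lay mostly in the background. The median of all probes rose by 0.30 in this contrast, and relative to it RT1-Da (-1.04) and the second RT1-Db1 probe (-1.20) passed as well. The probe called higher was RT1-Ba, which was not above background on any array of either group, so no fold is given. Cd80 (1.22, adjusted p = 0.018) and the first RT1-Bb probe (0.94, adjusted p = 0.567) were above 0 and not called. Of 10 housekeeping genes all 10 were below 0 in this contrast and 5 were called lower, with a median of -0.52, against -0.96 for the members by gene, and their part in the member differences was not tested. The Ciita call was lost without any 1 of 10 arrays, namely BAM replicates 3, 4, 5, 6 and 7 at 30 days and 1, 3, 5, 7 and 8 at 90 days, with an adjusted p of at most 0.0351.

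With ASCs, 4 of 12 probes were called lower between 30 and 90 days, against 10.3% of all probes, and none higher, against 17.8%. The second RT1-Db1 probe fell by 1.61, RT1-DMb by 1.27, the first RT1-Db1 probe by 1.16 and Cd86 by 0.84, with adjusted p from 7.36e-05 to 0.00274. Cd86 was above background on 2 of 8 ASC arrays at 90 days, so its later mean lay mostly in the background. RT1-DMa differed by -0.51 here (adjusted p = 0.0591), after its fall between 7 and 30 days.

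Between 90 and 180 days RT1-DMb fell by 0.93 (limma adjusted p = 0.00603) and Cd86 by 0.82 (adjusted p = 0.00349) with BAM only, beside 4.17% of all probes called lower and 5.21% called higher. The RT1-DMb call was lost without any 1 of 8 arrays, namely BAM replicates 2, 3, 4 and 6 at 90 days and 1, 6, 7 and 8 at 180 days, with adjusted p up to 0.0217. Without BAM replicate 5 at 90 days both RT1-Db1 probes were called, at -1.09 and -1.62. Cd86 was above background on 3 of 8 BAM arrays at 90 days and on 0 of 8 at 180 days. Both means thus lay mostly in the background, and no fold is given. Its call was lost without BAM replicate 5 or 6 at 90 days, with adjusted p up to 0.0132. With ASCs Cd86 was the only probe called, lower with a difference of -0.81 (adjusted p = 0.00778), beside 0.616% of all probes called lower and 3.52% called higher, with 2 of 8 arrays above background at 90 days and 1 of 8 at 180 days, so that both means lay mostly in the background. That call was lost without any 1 of 11 of the 16 arrays, namely ASC replicates 1, 3, 5, 6 and 8 at 90 days and 2, 4, 5, 6, 7 and 8 at 180 days, with adjusted p up to 0.0236. Both calls with BAM only were also lost relative to the median of all probes, whose own difference was -0.24 (-0.69 for RT1-DMb and -0.58 for Cd86).

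The rest of the class II pathway was followed in hand-written lists, with the brightest probe of each gene. Of 15715 genes, 0.592% were called lower and 1.37% higher at 30 days. Of 16 accessory and processing genes none was called at 30 days and 15 were below 0, with a median of -0.40. Of 11 genes of the interferon gamma axis none was called at 7 or 30 days, all 11 were below 0 at both, and the medians were -0.48 and -0.47. The medians over all genes were -0.13 and 0.08. Ifng was above background on 2 BAM and 0 ASC arrays at 7 days and on 3 and 0 at 30 days. Il12b was above background on 4 ASC arrays at 7 days and 5 at 30 days, so some of these differences involve background readings. The 7 genes of the complex that docks CIITA, RFX, NF-Y and CREB subunits, had a median of 0.03 at 30 days with none called.

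At 90 days, when 3.16% of the genes were called higher and 7.05% lower, 3 accessory genes were called. Cst3, a cathepsin inhibitor, was higher by 1.1 and Ctsb, a lysosomal protease, by 0.94, while RT1-DOb, a chain of the molecule that restrains RT1-DM, was lower by 1.11. RT1-DOb was above background on 5 of 8 BAM and 4 of 8 ASC arrays. In the same contrast 3 of 10 housekeeping genes were called higher, and their part in these differences was not tested. Among 10 costimulatory genes and receptors on T cells, Cd4, the coreceptor for class II, was called lower by -1.01 at 90 days. Cd4 was above background on 6 of 8 arrays of either graft. All 10 were below 0, against 67% of all probes. Only 0 to 5 of the 10 were above background per array, so most of these differences are of background readings. At 180 days no gene of these lists was called.

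Over time, 9 of the 16 accessory and processing genes were called lower between 30 and 90 days with BAM only and 6 with ASCs, against 10.7% and 11.2% of all genes. With BAM only the largest falls were of Cd83, a surface protein that keeps class II on mature dendritic cells, by 1.77, of Ctss, the protease that trims the invariant chain, by 1.64, and of Ctsz, another cathepsin, by 1.58. With ASCs they were of Ifi30, the thiol reductase of antigen processing, by 1.33, of Cd83 by 1.28 and of Marchf1, a ubiquitin ligase that removes class II from the surface, by 1.07. Marchf1 was above background on all 8 ASC arrays at 30 days and on 1 of 8 at 90 days.

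Class I presentation was set beside class II. At 7 days 2 of 16 genes were called lower with ASCs, against 5.12% of all genes, B2m, the light chain of class I, by -0.76 and Tap2, a peptide transporter chain, by -0.94. At 30 days none was called, 13 of 16 were below 0 and the median was -0.43. Within groups the mean level of the class I list followed the mean of RT1-Da, the first RT1-Db1 probe and Cd74, called the class II mean here, with r = 0.83 over 64 arrays, given as a description.

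Leukocyte markers were lower with ASCs at 30 days as well, without passing the test. Of 8 pan-leukocyte genes, all 8 were lower with ASCs and none was called, with a median of -0.94, and the mean level of the list ran from 1.05 to 2.54 with ASCs and from 2.49 to 3.11 with BAM only. Of 14 macrophage genes all 14 were lower and none was called, or 1 with the mean of all probes of a gene, with a median of -0.77, and the list level ran from 1.17 to 1.98 against 1.90 to 2.58. Every gene of both lists was above background on all 16 arrays. Of 11 T cell genes all 11 were lower, with a median of -0.82 and list levels from -3.49 to -1.53 against -2.90 to -0.20. The dendritic and B cell lists had medians of -0.45 and -0.68 with none called, and with 8 to 11 of 11 and 4 to 8 of 8 genes above background per array. The part of these cells in the class II differences was not tested.

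Between 30 and 90 days with BAM only, 7 of 8 leukocyte genes (median -1.60), 12 of 14 macrophage genes (median -1.12) and 3 of 11 T cell genes were called lower, against 10.7% of all genes. Of the dendritic cell list 2 genes were called higher and 2 lower, and of the B cell list 2 higher and 1 lower. Of all genes 30.6% were called higher and 10.7% lower. On the BAM arrays at 90 days only 3 to 7 of 11 dendritic cell genes and 1 to 5 of 8 B cell genes were above background. Of 8 smooth muscle genes 5 were called higher (median 0.92), against 30.6% of all genes. With ASCs, 5 of 8 leukocyte and 5 of 14 macrophage genes were called lower and 7 of 8 smooth muscle genes higher, against 11.2% and 17.4% of all genes. Within groups, the class II mean had r = 0.82 with the leukocyte list, 0.77 with T cells, 0.66 with macrophages, 0.66 with dendritic cells, 0.53 with B cells and -0.68 with smooth muscle. At 90 days between grafts, Ccr7 and Xcr1 of the dendritic cell list were called lower with ASCs, but they were above background on only 2 and 0 of the 16 arrays, so no size is given. Lyz2 of the macrophage list was called higher by 0.81 there, beside 3 of 10 housekeeping genes. At 7 days Fscn1 of the dendritic cell list was called lower by -0.80.

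The wall was checked against its own markers. The urothelial list was above background for 7 to 9 of 9 genes on every array, and the smooth muscle list for 8 of 8. At 7 days, when 2.63% of all genes were called higher and 5.12% lower, 6 of 9 urothelial genes were called higher with ASCs, led by Upk2 (2.87), Upk1a (2.36) and Upk3a (2.28), and Foxa1 was called higher at 30 days by 1.05, a call lost with the mean of all probes of a gene. Of 7 endothelial genes, Kdr (-0.68) and Vwf (-1.0) were called lower at 7 days and Cdh5 (-0.87) at 90 days. At 90 days, against 3.16% of all genes called higher and 7.05% lower, 3 of 8 smooth muscle genes were called higher with ASCs, Myh11 (1.09), Actg2 (1.00) and Tagln (1.00), and 3 of 8 fibroblast genes, Col1a2 (1.02), Dcn (0.76) and Col1a1 (0.75). The housekeeping list had 3 of 10 genes called higher there as well, and their part in these differences was not tested. Within groups the urothelial list had r = -0.09 with the class II mean.

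**Figure D5:**
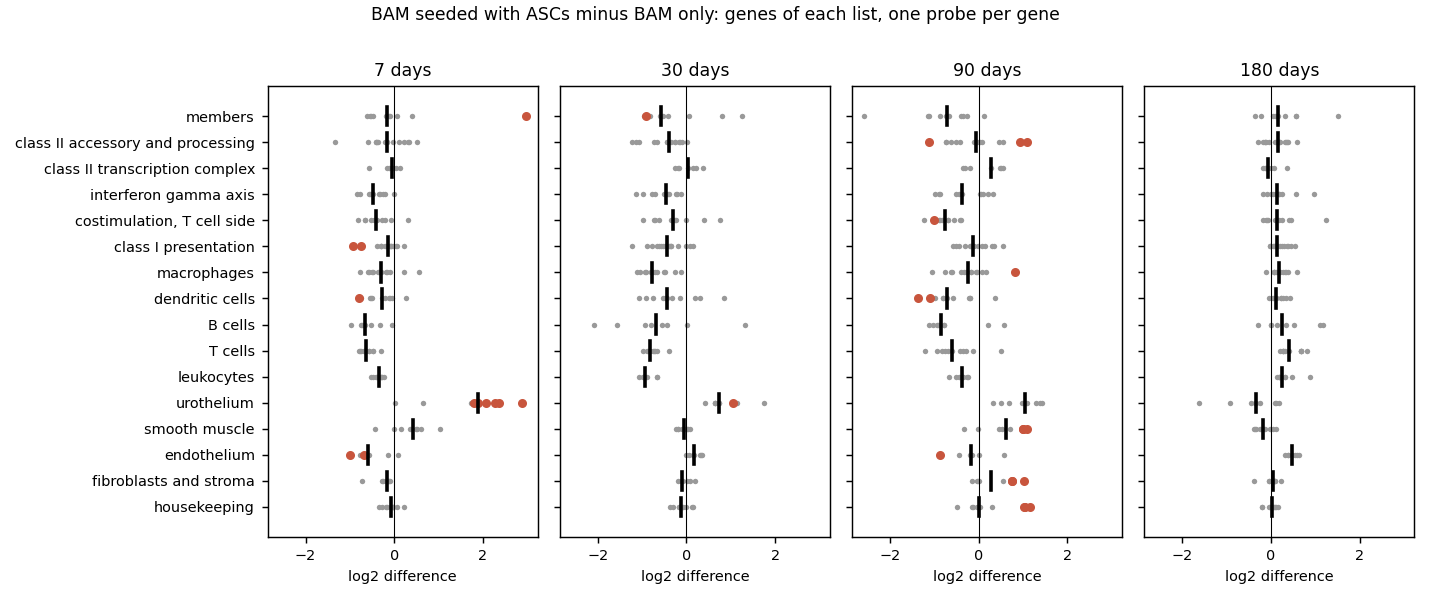
Log2 difference, BAM seeded with ASCs minus BAM only, for the genes of each list at each day, with 1 probe per gene, grey points for genes not called, red points for called genes and black bars for list medians. At 30 days the medians of the leukocyte, T cell and macrophage lists lie at -0.94, -0.82 and -0.77, next to that of the members at -0.57 by gene.

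The genes most like the mean of RT1-Da, RT1-Db1, RT1-Ba, RT1-Bb and Cd74, each by its brightest probe, within groups were sought among 7950 other probes that were above background on at least 56 arrays and never saturated. The closest were RT1-CE4 (r = 0.85), RT1-CE7 (0.82), RT1-CE11 (0.80), RT1-S3 (0.78), Abhd16a (0.72), RT1-CE13 (0.70), RT1-CE3 (0.69), RT1-T18 (0.66), RT1-S2 (0.60) and Arhgdib (0.59). In the RefSeq table all but Arhgdib lie on chromosome 20 with the class II genes, and the RT1 genes among them belong to class I. This mean carried the 6 arrays with the first RT1-Bb probe at background. RT1-CE4 was also the gene closest to that probe alone (r = 0.84), over arrays that included these 6. It was the lowest of its group on 4 of these 6 arrays and the second lowest on the rest, where the lowest was also one of the 6. These ranks follow in part from how RT1-CE4 was picked and are no separate support.

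Without the RT1-B probes and the second RT1-Db1 probe, a choice made after the data were seen, 1 of the 10 nearest genes was the same. Among them were Ptpn6 (0.87), Psmb9, Cd6, Rac2 and Ptprcap (0.85 each), Coro1a (0.84), Arhgdib (0.83), and Hcst and Akna (0.82 each). Ptprcap and Coro1a are also in the leukocyte list.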

How the data were processed

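Total RNA of the reconstructed bladder wall was hybridised to 1-colour Agilent rat arrays, 1 rat per array. The authors deposited the scanner output of Agilent Feature Extraction, version 12.0.1.1 per the labels, whose processed signal is a background-subtracted intensity on a linear scale. The deposited series matrix holds processed signals of the same arrays on a linear scale, and their log2 was used as an alternative only. On 3 arrays of BAM seeded with ASCs at 7 days these log2 values lay about 3.3 below those of the scanner output. In the matrix 1 array lacked values for 26650 spots.

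From the intensity, log2 was taken and the 75th percentile of the gene spots of each array subtracted. Outlier spots were left out and spots of a probe averaged, which left 115 missing values, and 30367 probes. Probes were named through RefSeq transcripts (GRCr8). A probe was above background on an array when at least 0.5 of its spots were well above background by the scanner software. With limma 3.58.1 (R 4.3.3), 1 mean per group was estimated from the 64 arrays, and Benjamini-Hochberg adjustment ran over all probes. The number of arrays limits the precision. The p-values rest on the spread between the rats of a group, and each group had its own slide. They do not cover differences between slides. The script was tested on simulated data. Array pairs within a group had r of at most 0.993, and no array was counted out as a duplicate.

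The members and lists were chosen with earlier results of these data known. Named were all members, of each other list up to 3 called genes per comparison by size, and the 10 genes most like the members. A gene that this rule names is not reported here. Alternatives were another background correction, normalization, scaling and test, other thresholds and filters, the series matrix, a replicate block, fits of only 2 groups, and leaving out each array. Centring on the median difference of all probes, the exact permutation test and the second search for like genes were added after the data were seen.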

Additional observations from a re-analysis of the deposited data

Results flagged for a closer look

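In 7 of 96 combinations of probe and group, 1 array stood further from the other 7 than Dixon's test allows. Chance alone gives this in about 5% of groups. RT1-Ba was highest on BAM only at 90 days, replicate 8, at -3.21, and on BAM seeded with ASCs at 180 days, replicate 6, at -2.42. The first RT1-Bb probe was lowest on replicate 6 of BAM only at 30 days, at -7.18, and on replicate 6 of BAM seeded with ASCs at 30 days, at -7.01. The second RT1-Bb probe was lowest on BAM seeded with ASCs at 30 days, replicate 1, at 1.14. RT1-DMb was lowest on BAM seeded with ASCs at 90 days, replicate 3, at -1.67. Cd80 was highest on BAM only at 7 days, replicate 7, at -3.26.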

How the results depend on the processing

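Between grafts, the 1 call at 7 days became 0 with normexp correction, with dim probes left out and when only the 2 groups were fitted. The 1 call at 30 days became 0 under quantile normalization, the percentile of detected probes, the series matrix, the analysis of variance without moderation and the 2-fold threshold, 4 at an unadjusted p below 0.01, 3 at an adjusted p below 0.05, and 2 when only 2 groups were fitted or the median difference of all probes was subtracted. The 0 calls at 90 days became 2 at the unadjusted and 3 at the looser adjusted threshold. Between days, BAM only went from 1 to 0 calls for 30 minus 7 days under normexp, quantile normalization and the 2-fold threshold, from 8 to 5 for 90 minus 30 days under normexp, and from 2 for 180 minus 90 days to 1 under quantile normalization and 0 under normexp, the 2-fold threshold, the fit of 2 groups and relative to the median. With ASCs, the 1 call for 180 minus 90 days became 0 under normexp, with dim probes left out, at the 2-fold threshold and in the fit of 2 groups. The cause was not tested.

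Without 1 array the counts between grafts ran from 0 to 1 at 7 and at 30 days, from 0 to 2 at 90 days, reaching 2 without BAM replicate 5, and stayed at 0 at 180 days. With BAM only they ran from 1 to 1, 7 to 8 and 0 to 3 for the successive intervals, and with ASCs from 1 to 3, 3 to 4 and 0 to 1.

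The labels do not say whether a replicate number is shared between groups, and the check below cannot exclude a pairing of the rats. Over 32 pairs of same-numbered arrays the correlation of deviations ran from -0.28 to 0.33, was above 0.1 in 9, and was best with the own number in 6. With the replicate block the count at 30 days became 0 (RT1-DMa adjusted p = 0.0134). With the block it became 3 for 180 minus 90 days with BAM only and 2 for 30 minus 7 days with ASCs.

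Some graft differences that were not called changed sign, the largest being RT1-Ba at 90 days (-0.88) and Cd80 at 7 days (-0.62), both on few or no arrays above background. At 7 days these were Cd86 under normexp (-0.11), Cd74 under quantile normalization (0.02) and without saturated values (0.04), RT1-DMa with the percentile of detected probes (0.01), Cd80 in the series matrix (0.07), and Ciita (0.03) and RT1-DMa (0.07) relative to the median. At 30 days it was the first RT1-Bb probe relative to the median (-0.06). At 90 days these were RT1-Ba under normexp (0.16), Cd86 under quantile normalization (0.20), Cd74 without saturated values (0.13) and relative to the median (0.00), and the second RT1-Bb probe under normexp (0.04), quantile normalization (0.03), the percentile of detected probes (0.04) and relative to the median (0.27). At 180 days these were RT1-Ba under quantile normalization (-0.25) and in the series matrix (-0.03), Ciita under quantile normalization (-0.06), and RT1-DMa under quantile normalization, the percentile of detected probes and relative to the median (-0.02 each).

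Without 1 array, signs changed for Cd86 (-0.06 to 0.16), Ciita (-0.24 to 0.07) and RT1-DMa (-0.18 to 0.01) at 7 days, the first RT1-Bb probe (-1.28 to 1.35) at 30 days, the second RT1-Bb probe (-0.25 to 0.23) and RT1-DMa (-0.10 to 0.24) at 90 days, and RT1-Ba (-0.18 to 0.48), Ciita (-0.04 to 0.32) and RT1-DMa (-0.06 to 0.10) at 180 days. Of all results and alternatives, 1332 kept direction and side of the threshold, 52 changed sign, 29 kept direction but lost the call and 14 kept direction and gained it. Low signal limits RT1-Ba, Cd80 and, at 90 and 180 days, Cd86 and Ciita.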
